A study of Mus musculus with 272 samples.

Results

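The surface receptors and adhesion proteins of muscle stem cells (MuSCs, also called satellite cells) were followed through maps of chromatin. The 10 genes were chosen by name in the GENCODE M21 annotation of mm10 (GRCm38.p6), out of 21938 protein-coding genes, and all 10 were found: *Calcr*, *Sdc3*, *Sdc4*, *Cdh15*, *Itga7*, *Itgb1*, *Vcam1*, *Cd34*, *Cxcr4* and *Met*. In the study's methods, GFP+ MuSCs were sorted from hindlimb muscle of Pax7Cas9 mice. Cre driven from the *Pax7* locus switches on a Cas9-EGFP knock-in at *Rosa26* in these mice. Cells of the *Pax7* lineage thus carry both Cas9 and the reporter. The methods of ATAC-seq and ChIP-seq do not repeat the mouse line or the sort, which are taken here to hold for every library. The series holds 272 samples, most of them on genome editing, and 8 of them have peak lists, 2 replicates each of ATAC-seq, which finds open chromatin, and of ChIP-seq against H3K4me3, which marks promoters, against H3K27ac, which marks promoters and enhancers in use, and against H3K27me3, which marks chromatin silenced by Polycomb proteins. There was 1 condition, without a second cell type or treatment. The knock-in line was a Jackson Laboratory stock of mixed strain background, crossed with homozygous Pax7Cre mice, and the labels of these libraries name no strain. The age and number of animals behind these libraries, and whether the replicates came from separate animals, are not given in the sources used here.

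MuSCs lie between the plasma membrane of the myofibre and its basal lamina, and their surface proteins hold them there and read signals of quiescence and of injury. Integrin α7 (*Itga7*) and β1 (*Itgb1*) form a laminin receptor on the side of the basal lamina, and M-cadherin (*Cdh15*) joins the cell to the myofibre. The calcitonin receptor (*Calcr*) is a G-protein-coupled receptor of quiescent MuSCs, *Cxcr4* is the receptor of the chemokine Cxcl12, and *Met* is the tyrosine kinase receptor of hepatocyte growth factor. Syndecans 3 and 4 (*Sdc3*, *Sdc4*) are heparan sulfate proteoglycans that bind growth factors and matrix, *Vcam1* is a ligand of integrin α4β1, and *Cd34* is a sialomucin that endothelial and fibro-adipogenic cells also make. Most of these proteins are used to sort MuSCs, but the sort described in the study was on GFP, so that no member was part of that gate.

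Each list was called on 1 library, and its values are the fold enrichment of a peak at its summit over the background that MACS2 estimated, and its q-value on the −log10 scale. The lists held 140716 and 94382 ATAC-seq peaks in replicates 1 and 2, 20512 and 18001 H3K4me3 peaks, 24209 and 18584 H3K27ac peaks, and 6064 and 10458 H3K27me3 peaks, counted on the 21 assembled chromosomes. They contain no numbers of reads, which leaves the sequencing depth unknown, and a site without a peak was not called at that depth, which does not show that the feature is absent. A fold enrichment is not an amount of RNA or protein. The marker lists used to check the sorted cells were chosen with earlier results of these data known. In them, 8 of 8 other MuSC marker genes (*Pax7*, *Myf5* and *Myod1* among them) had open promoters with both active marks in each replicate. H3K27ac was found in both replicates at 1 of 8 fibro-adipogenic, 1 of 8 endothelial, 1 of 9 blood and 3 of 8 myofibre marker promoters, beside 46.6% of all protein-coding genes. H3K4me3 was found at 3, 4, 4 and 5 of these markers, beside 60.8% of all protein-coding genes. ATAC-seq peaks were found at 4, 7, 7 and 7, beside 67.8%, and H3K27me3 at 1, 0, 0 and 2, beside 4.81%. Among fibro-adipogenic markers, *Dpt* had all 3 features (H3K27ac 8.81 and 6.21), *Pdgfra* and *Dpp4* had ATAC-seq and H3K4me3, and *Dcn*, *Lum* and *Ly6a* had no promoter peak of any feature. *Pdgfra* also had H3K27me3 in both replicates (6.75 and 6.5), as did the myofibre markers *Acta1* (3.75 and 4.11) and *Ckm* (6 and 3.74). Among endothelial markers, *Tek* had all 3 features (H3K27ac 11 and 10.2), *Kdr*, *Esam* and *Egfl7* had ATAC-seq and H3K4me3, and *Pecam1* and *Cdh5* had ATAC-seq peaks alone. The part of such cells in the peaks of *Cd34* and *Vcam1* was not tested.

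The promoters of all 10 genes were open and carried H3K4me3, 8 carried H3K27ac, and none carried H3K27me3 in either replicate. A promoter reached 3 kb upstream and downstream of each annotated transcription start site (TSS) of the gene, and it counted when it held a peak in both replicates. ATAC-seq peaks marked 10 of 10 members, beside 67.8% of all protein-coding genes. H3K4me3 marked 10 of 10, beside 60.8%, and H3K27ac marked 8 of 10, beside 46.6%. H3K27me3 marked 0 of 10, where 4.81% of all protein-coding genes had such a peak. The members without H3K27ac were *Calcr* and *Sdc3*, with no promoter peak in either replicate, although both had ATAC-seq and H3K4me3 peaks in both. This state was found at 2 of 10 members and at 10.5% of all protein-coding genes.

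**Figure D1:**
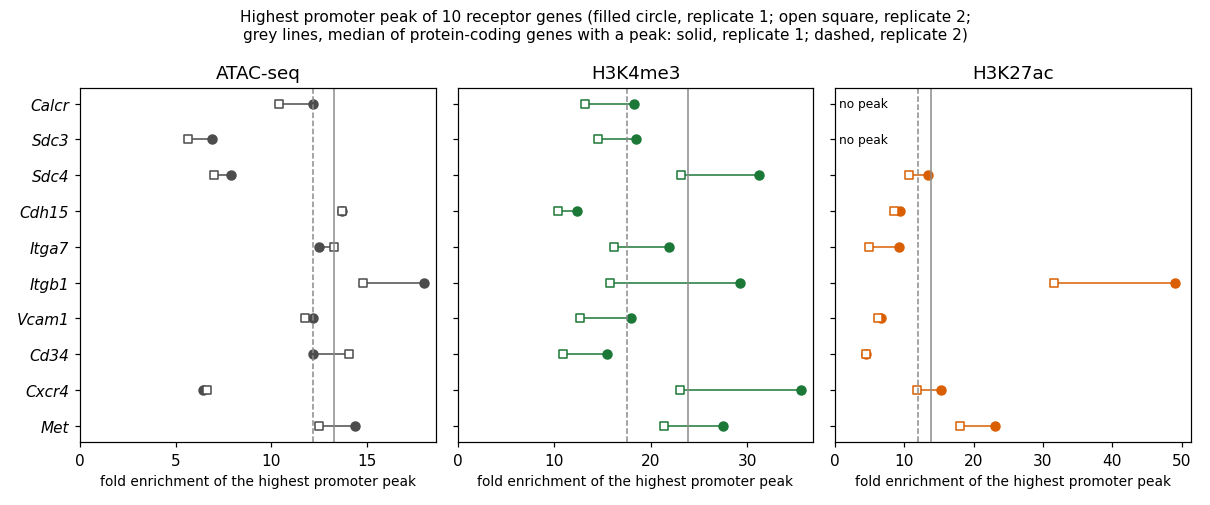
Fold enrichment (x axis) of the highest ATAC-seq, H3K4me3 and H3K27ac promoter peak of each of the 10 genes (y axis) in replicate 1 (filled circle) and replicate 2 (open square), with the median of all protein-coding genes that have such a peak as grey lines. *Itgb1* stands apart in H3K27ac at 49.1 and 31.6, and *Calcr* and *Sdc3* have no H3K27ac peak.

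H3K27ac separated the members most, from no peak at all to a promoter in the top few percent of the marked protein-coding genes. *Itgb1*, which codes for the β1 subunit shared by many integrins, reached 49.1 in replicate 1 and 31.6 in replicate 2, or 40.3 ± 12.3 (SD, n = 2), above 99.5% and 97.5% of the marked protein-coding genes. *Met* followed with 23 and 18. *Cxcr4* had 15.3 and 11.8, and *Sdc4* 13.4 and 10.7, close to the medians of marked genes of 13.9 and 12. The ranges of these last 2 genes overlapped, whereas those of *Itgb1*, *Met* and *Cxcr4* did not overlap with one another. *Cdh15* had 9.35 and 8.46, *Itga7* 9.2 and 4.91, and *Vcam1* 6.68 and 6.25. The values of *Vcam1* belong to different sites, 407 bp downstream of the TSS in replicate 1 and 1421 bp downstream in replicate 2. Over the first site replicate 2 had 4.42 at most, and over the second replicate 1 had 5.85. For *Itga7*, the highest peak lay at the TSS in replicate 1 and 2100 bp downstream in replicate 2, where the peak at the TSS had 3.44. *Cd34* came last with 4.49 and 4.46, and its peaks did not overlap between the replicates. The highest lay 1441 bp downstream of the TSS in replicate 1 and 3147 bp downstream in replicate 2, the latter close to the edge of the promoter. Replicate 1 had a further peak of 4.1, 461 bp downstream of the TSS. *Cd34* is not counted when the peaks have to overlap (an alternative chosen after seeing the data), when promoters are cut to 1 kb, when only TSSs of protein-coding transcripts are used, or at a −log10 q of at least 5, and the count then falls from 8 to 7.

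In H3K4me3 the replicates differed more than most neighbouring genes did. *Cxcr4* (35.6 and 23) and *Sdc4* (31.2 and 23.2) had the highest values, and *Met* had 27.5 and 21.4. *Itgb1* had 29.3 in replicate 1 and 15.8 in replicate 2. *Itga7* (21.9 and 16.2), *Sdc3* (18.5 and 14.6), *Calcr* (18.3 and 13.2), *Vcam1* (18 and 12.7) and *Cd34* (15.5 and 10.9) were lower, and *Cdh15* was lowest with 12.4 and 10.4. No gene in this order was apart from the next beyond the range of its replicates. Within each library, *Sdc4* was above *Met*, and *Itga7*, *Sdc3*, *Calcr*, *Vcam1*, *Cd34* and *Cdh15* came in this order in both replicates. The order changed between replicates for *Cxcr4* and *Sdc4*, for *Met* and *Itgb1*, and for *Itgb1* and *Itga7*. Replicate 1 was higher for every member, and the median over all marked protein-coding genes was also higher there, at 23.9 against 17.6. The median of the members was 20.2 in replicate 1 and 15.2 in replicate 2, below that of all marked genes in both.

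The width of the H3K4me3 peaks set 4 members apart from most marked protein-coding genes. The widest promoter peak of *Sdc4* was 7787 bp in replicate 1 and 3656 bp in replicate 2, wider than in 99.8% and 97.9% of marked protein-coding genes. *Cxcr4* had 6011 and 5153 bp, *Itga7* 5811 and 3496 bp, and *Vcam1* 4391 and 3014 bp. In the latter 3 genes the widths were above those of 95.5% or more of marked genes in both replicates. The H3K4me3 peak of *Cxcr4*, a gene of 4.09 kb, ran from −1453 bp to 4557 bp of its main TSS in replicate 1, past the end of the gene. *Sdc3* and *Cd34* had narrow peaks of 1128 and 1108 bp and of 1304 and 1050 bp. Over the 10 members, the median width was 3124 and 2296 bp, beside 1631 and 1350 bp over all marked genes. Where a peak was long in replicate 1 it was often split into several peaks in replicate 2, as for *Sdc4* and *Itga7*.

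**Figure D2:**
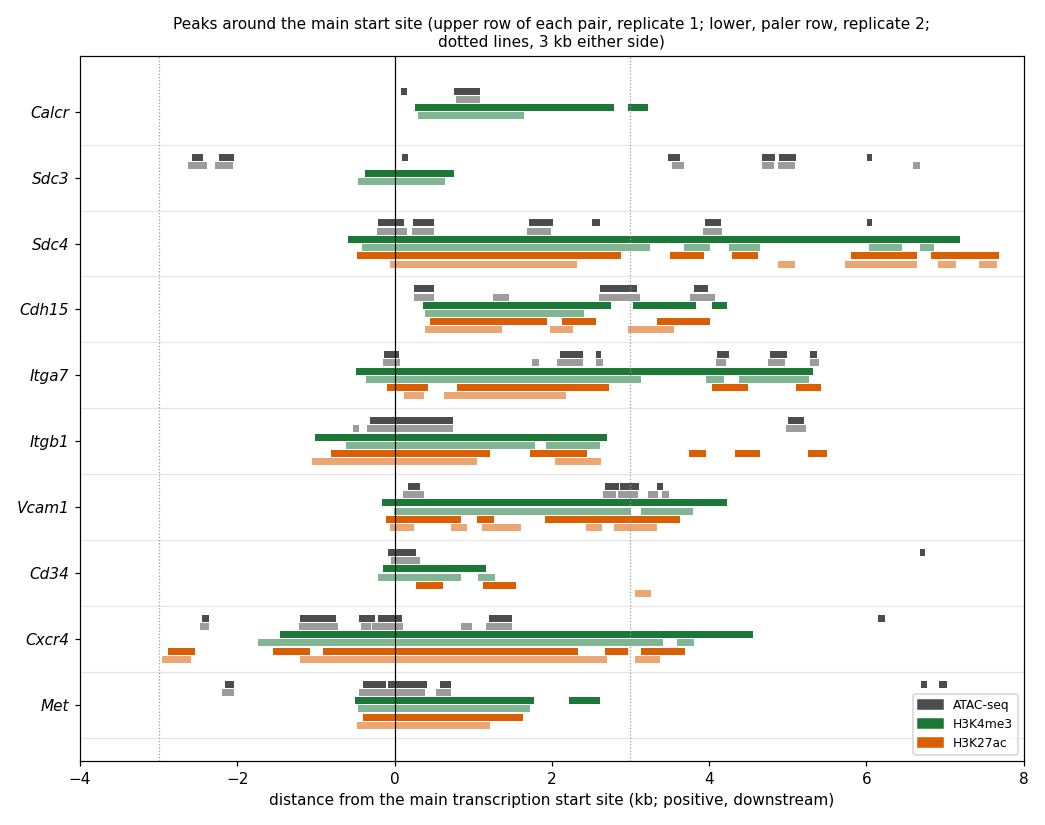
Peaks of ATAC-seq, H3K4me3 and H3K27ac from 4 kb before to 8 kb after the main transcription start site of each gene (x axis, distance in kb), with replicate 1 in the upper row and replicate 2 in the lower, paler row of each pair. H3K4me3 of *Calcr* and *Cdh15* begins downstream of the start site, and *Sdc4* and *Cxcr4* have the widest H3K4me3 peaks.

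ATAC-seq peaks were of ordinary height, and several of the highest did not lie at the TSS. *Itgb1* was highest with 18 and 14.8, in a peak of 1047 and 1085 bp across its TSS. *Met* had 14.4 and 12.5 and *Cd34* 12.2 and 14.1, also at the TSS. In *Cdh15* the highest peak, 13.7 in both replicates, lay 2764 and 2762 bp downstream of the TSS, while the peak nearest the TSS had 5.55 and 4.93. In *Itga7* the highest peak (12.5 and 13.3) lay 2248 bp downstream in replicate 1, and in *Vcam1* (12.2 and 11.8) 2995 bp downstream. *Calcr* had 12.2 and 10.4 at a site 931 and 901 bp downstream of its main TSS, near an alternative TSS at 1028 bp. At the main TSS of *Calcr* a weak peak of 3.71 was found in replicate 1 alone. *Sdc4* (7.9 and 7.01), *Cxcr4* (6.42 and 6.63) and *Sdc3* (6.9 and 5.67) were lowest. The values of *Sdc4* belong to different sites, 2560 bp downstream in replicate 1, without a peak there in replicate 2, and 382 bp downstream in replicate 2, where replicate 1 had 6.29. For *Sdc3*, the highest peak lay upstream, at −2511 bp from the TSS in replicate 1. At the *Sdc3* TSS itself there was 1 peak of 3.35 in replicate 1 and none in replicate 2, under an H3K4me3 peak of 18.5 and 14.6. The medians of the members, 12.2 and 12.1, were close to the 13.3 and 12.2 of all marked genes.

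The H3K4me3 peaks of *Calcr* and *Cdh15* did not cover the annotated main TSS. That of *Calcr* began 260 and 301 bp after it, and its summits, at 860 and 810 bp, lay nearer to the alternative TSS. That of *Cdh15*, a gene with 1 annotated transcript, began 363 and 391 bp after the TSS, and its H3K27ac began 457 and 382 bp after it. The other 8 members had H3K4me3 across the main TSS in both replicates. The bases before the start sites differed widely. In the 200 bp before the main TSS, the median over all protein-coding genes was 8 CpG pairs, while *Sdc3* had 31, *Itgb1* 20, *Sdc4* 17, *Cxcr4* 16, *Itga7* 15 and *Met* 11. *Cd34* had 5, *Calcr* 3, and *Cdh15* and *Vcam1* had 0. GGGCGG, the letters bound by Sp and Klf factors, was found on either strand in 6 of the 10 members, those with 11 or more CpG pairs, and in 39.7% of all such windows. *Sdc3* and *Cdh15* are shown as the extremes, each on the plus strand of mm10 and 5′ to 3′ toward its start site, at chr4:130792337-130792536 and chr8:122847766-122847965, with GGGCGG on either strand in capitals.
Sdc3: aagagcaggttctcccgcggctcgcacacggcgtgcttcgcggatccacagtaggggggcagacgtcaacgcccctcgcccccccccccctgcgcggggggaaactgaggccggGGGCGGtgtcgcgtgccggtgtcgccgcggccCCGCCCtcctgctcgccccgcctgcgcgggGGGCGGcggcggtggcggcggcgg
Cdh15: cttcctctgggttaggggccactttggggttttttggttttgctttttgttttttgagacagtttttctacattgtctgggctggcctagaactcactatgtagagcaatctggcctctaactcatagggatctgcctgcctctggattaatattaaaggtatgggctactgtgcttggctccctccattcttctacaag
The CpG-rich *Sdc3* promoter had the higher H3K4me3 of this pair and no H3K27ac peak, and the *Cdh15* promoter, without CpG or any of the 8 motifs searched in this window, had H3K27ac in both replicates. This pair does not stand for the other members. H3K27ac was highest at *Itgb1* (20 CpG pairs), *Met* (11), *Cxcr4* (16) and *Sdc4* (17). *Itga7* (15), *Vcam1* (0) and *Cd34* (5) had lower peaks than these, and *Calcr* (3) had none.

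Away from promoters, all 10 genes had open chromatin found in both replicates, in the gene or within 50 kb of it. A peak was distal when it lay outside every promoter of every annotated gene. At least 1 distal ATAC-seq peak of both replicates was found at 10 of 10 members, beside 68.3% of protein-coding genes, and at least 1 distal H3K27ac peak at 5 of 10, beside 17%. In all, 91 ATAC-seq, 10 H3K27ac, 3 H3K4me3 and 0 H3K27me3 peaks were distal and found in both. *Cxcr4* and *Met* had 17 ATAC-seq peaks each, *Sdc3* 13, *Itgb1* 12, *Itga7* 11, *Sdc4* 8, *Calcr* 4, and *Cdh15*, *Vcam1* and *Cd34* 3 each. For the length of the window, *Cxcr4* was densest, with 16.3 peaks per 100 kb, above 99.8% of protein-coding genes. *Sdc3* had 9.72, *Itga7* 8.84, *Itgb1* 8.13 and *Met* 8.09, and *Calcr*, *Cd34*, *Cdh15* and *Vcam1* had 2.23 to 2.51. The median of the members was 7.39 per 100 kb, beside 1.58 over all protein-coding genes, a figure that includes genes closed in these cells. All 17 peaks of *Cxcr4* lay outside its short body, whereas 13 of the 17 of *Met* lay within its body of 110 kb.

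**Figure D3:**
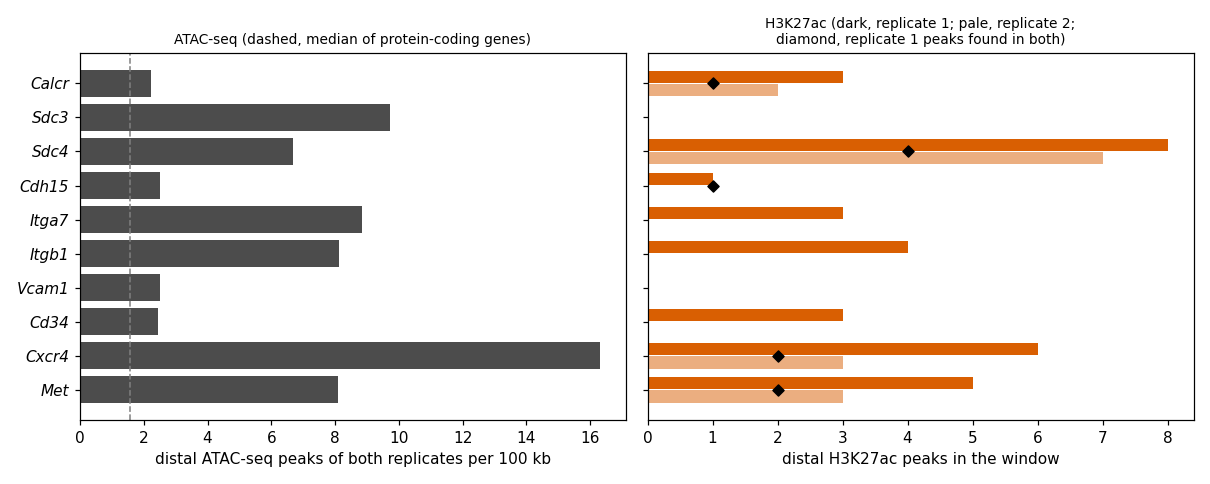
Left, distal ATAC-seq peaks found in both replicates per 100 kb of window (x axis) for each gene, with the median of all protein-coding genes as a dashed line. Right, number of distal H3K27ac peaks in replicate 1 (dark) and replicate 2 (pale), with diamonds for replicate 1 peaks found in both. *Cxcr4* is highest on the left at 16.3, and *Sdc4* on the right with 8 and 7 peaks.

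Few of these open sites carried H3K27ac in both replicates, a share near that of all distal open sites. Of the 91 distal ATAC-seq peaks, 6 (6.59%) overlapped H3K27ac peaks of both, beside 8.23% (4000 of 48588) in the whole genome. Another 20 overlapped H3K27ac in 1 replicate, and 65 in neither. *Sdc4* had 3 of the 6, *Met* 2 and *Cxcr4* 1. Distal H3K27ac depended on the replicate more than distal ATAC-seq did. Replicate 1 had 33 distal H3K27ac peaks in the windows, of which 10 were found again in replicate 2, and replicate 2 had 15, of which 11 were found in replicate 1. The shared peaks of replicate 1 had a median fold of 6.28, the others 4.22. For ATAC-seq, 91 of 127 peaks of replicate 1 and 89 of 100 of replicate 2 were found in the other. *Itga7*, *Itgb1* and *Cd34* had 3, 4 and 3 distal H3K27ac peaks in replicate 1 and 0 in replicate 2. *Sdc3* and *Vcam1* had 0 in both, so that *Sdc3*, with 13 shared open sites in its window, had no H3K27ac peak there at all.

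Sequences are shown for the open sites of 4 genes, because H3K27ac lay on or beside them in both replicates. Each is read from mm10 on the plus strand, 5′ to 3′, and reaches 100 bp either side of the replicate 1 summit of the highest distal ATAC-seq peak of the gene found in both replicates, with all motif matches in capitals. The motifs were searched on both strands: CAGCTG (an E-box of MyoD and Myf5), TGANTCA (AP-1), TGTGGTT (Runx), TGGGAA (Rbpj), TAATTA (homeodomain), GGAATG (Tead), GTAAACA (FoxO and other Fox factors) and GGGCGG (Sp and Klf).
Met chr6:17478930-17479130: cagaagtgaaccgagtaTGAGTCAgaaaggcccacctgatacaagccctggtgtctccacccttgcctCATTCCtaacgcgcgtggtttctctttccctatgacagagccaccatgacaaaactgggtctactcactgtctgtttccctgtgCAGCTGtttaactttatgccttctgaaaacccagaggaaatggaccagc
Calcr chr6:3741364-3741564: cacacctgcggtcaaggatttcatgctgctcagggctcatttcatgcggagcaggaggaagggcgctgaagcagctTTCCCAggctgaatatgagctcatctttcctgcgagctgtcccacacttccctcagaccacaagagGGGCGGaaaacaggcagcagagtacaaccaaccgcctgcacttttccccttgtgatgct
Cxcr4 chr1:128636626-128636826: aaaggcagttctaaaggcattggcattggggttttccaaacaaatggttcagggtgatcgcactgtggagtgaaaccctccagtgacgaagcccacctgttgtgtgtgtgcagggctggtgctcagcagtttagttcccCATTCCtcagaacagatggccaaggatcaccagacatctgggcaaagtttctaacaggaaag
Sdc4 chr2:164432846-164433046: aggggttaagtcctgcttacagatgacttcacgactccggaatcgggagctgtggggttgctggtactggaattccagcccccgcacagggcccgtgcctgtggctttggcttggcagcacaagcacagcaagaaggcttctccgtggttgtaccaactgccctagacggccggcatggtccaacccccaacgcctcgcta
None of these windows overlapped an annotated exon. The *Met* window held 3 motifs, TGAGTCA at base 18, GGAATG on the reverse strand at base 69 and CAGCTG at base 153. Of all 140716 such windows of replicate 1, 16.8%, 12.1% and 22.3% held the AP-1, Tead and E-box letters. The *Calcr* window held TGGGAA on the reverse strand, found in 18.7% of windows, and GGGCGG, found in 16.3%. The *Cxcr4* window held GGAATG on the reverse strand, and the *Sdc4* window held none of the 8. Over these highest shared distal ATAC-seq peaks of all 10 members, TGGGAA was found in 3, TGANTCA and GGAATG in 2 each, CAGCTG and GGGCGG in 1 each, and the other 3 motifs in none. Matches describe the letters and do not show that a factor was bound.

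Among distal open sites found in both replicates, that of *Met* was highest. It lay in an intron 15230 bp downstream of the TSS (chr6:17478867-17479490 in replicate 1) and had ATAC-seq folds of 22.4 and 24.5, above those of 96.4% and 99.7% of distal ATAC-seq peaks. These were also above the folds at its own promoter, 14.4 and 12.5. The H3K27ac peak over it had 11.9 and 8.09, with summits 1 bp apart between the replicates. An H3K27ac peak 52068 bp downstream in replicate 1, in an intron as well, had 7.2 and 3.49. *Met* has 7 annotated start sites, and both elements lie outside the promoters of all of them.

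*Calcr* had no H3K27ac at its promoter but had it in an intron. The H3K27ac peak 21998 bp downstream of the main TSS (chr6:3741985-3743181 in replicate 1) had folds of 8.04 and 5.27. The highest open site of both replicates lay 23194 bp downstream, with ATAC-seq folds of 17.9 and 17, above the 12.2 and 10.4 of the promoter. In replicate 1 a further H3K27ac peak of 4.22 and an H3K4me3 peak of 4.14 lay over that site, and in replicate 2 neither was found. Beyond the 3′ end of the gene, 90640 bp from the main TSS, another open site had 12.9 and 12.3, beside a weaker one of 6.13 and 5.24. An H3K4me3 peak of 5.03 covered both sites in replicate 1, and in replicate 2 an H3K4me3 peak of 4.41 overlapped the weaker site alone. An H3K27ac peak of 3.83 overlapped both sites in replicate 1 and was not found in replicate 2.

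The other distal H3K27ac peaks of both replicates belonged to *Sdc4*, *Cdh15* and *Cxcr4*. In *Sdc4*, 4 such peaks lay in introns between 6451 and 10999 bp downstream of the TSS. The farthest had 8.77 and 7.38, and the open site beside it, 10240 bp downstream, had ATAC-seq folds of 13.6 and 13.4, above every promoter peak of *Sdc4* in each replicate. H3K4me3 of both replicates also reached that site. The *Cdh15* peak had 5.37 and 5.52 and lay 3819 bp downstream in replicate 1, but in replicate 2 the peak it overlapped began 2968 bp downstream, within the promoter. The highest shared distal open site of *Cdh15* lay upstream at −17370 bp, in an intron of *Gm20388*, with 17.1 and 10.9 and without H3K27ac peaks of both replicates. *Cxcr4* had 1 peak of 5.12 and 3.87 in its coding exon 3376 bp downstream, and 1 of 4.98 and 3.68 upstream at −44279 bp, between genes. The latter overlapped the highest shared distal open site of *Cxcr4*, with ATAC-seq folds of 12 and 11.3.

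**Figure D4:**
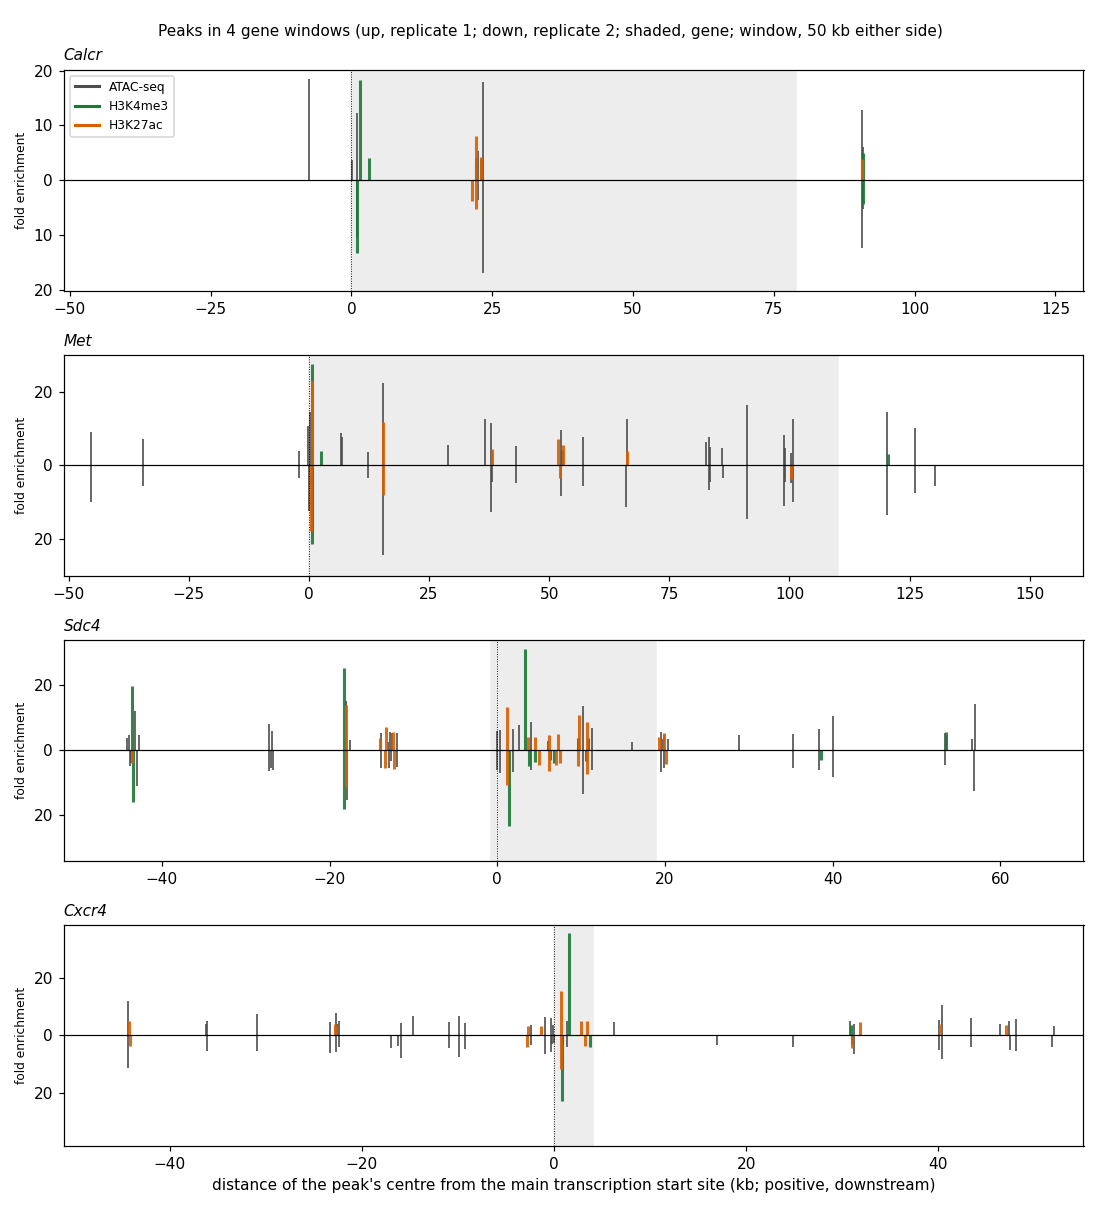
H3K27ac, H3K4me3 and ATAC-seq peaks in the windows of *Calcr*, *Met*, *Sdc4* and *Cxcr4*, by distance of the peak's centre from the main transcription start site (x axis, kb) and fold enrichment (y axis), with replicate 1 upward and replicate 2 downward. The gene is shaded, and the intronic ATAC-seq peak of *Met* at 22.4 and 24.5 exceeds that of its promoter.

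In the 5 genes without shared distal H3K27ac, the highest distal open sites found in both replicates spanned folds from 17.7 down to 7.71. That of *Itga7* had 17.6 and 17.7, with summits 1 bp apart, but lay 43880 bp downstream, in an exon of *9030616G12Rik*, in a window with promoters of 7 other protein-coding genes. *Vcam1* had 14.3 and 10.8 in an intron 14997 bp downstream, *Itgb1* 11.6 and 11.4 upstream at −5524 bp, and *Sdc3* 11.3 and 8.97 at 69569 bp downstream, between genes. *Cd34* had the lowest, 7.83 and 7.71, in an intron 12287 bp downstream. *Itgb1* had the highest promoter H3K27ac of the 10 and no distal H3K27ac found in both. Its window did hold a shared H3K27ac peak of 6.13 and 5.52, at −31106 bp in replicate 1, with ATAC-seq folds of 16.3 and 11.9. That site is not distal by the rule used here, because it lies in the promoter of *Gm45746*.

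Several distal ATAC-seq peaks of replicate 1 were higher than these and had no peak in replicate 2. They are named after their values were seen. *Itgb1* had 48.5 in an intron 22551 bp downstream, with a −log10 q of 280, and 30.6 at 76708 bp downstream, in an intron of *Ccdc7a*, with a −log10 q of 109. The first is above every other ATAC-seq peak in the 10 windows. *Cd34* had 22.8 at 44587 bp downstream, in an intron of *A330023F24Rik*, with a −log10 q of 72.8, and *Calcr* had 18.4 upstream at −7540 bp, with a −log10 q of 53.5. These 4 peaks were narrow, at 125, 139, 116 and 116 bp, and are left out wherever a site of both replicates is described.

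Few H3K27me3 peaks were called in the windows. *Sdc4* alone had an H3K27me3 peak of both replicates, 4.5 and 4.11, in a coding exon of *Matn4* and in the promoter of *Rbpjl*, 42548 bp downstream of the *Sdc4* TSS in replicate 1. Replicate 1 had 3 peaks and replicate 2 had 4 in this window, 3 in each in promoters of *Matn4*, *Rbpjl* or *Slpi*. *Met* had 1 peak upstream at −41460 bp in replicate 1, with a −log10 q of 0.395. The other 8 windows had 0 in both replicates. The H3K27me3 peaks of the whole lists were narrow as well, with median widths of 176 and 181 bp.

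Genes that work with the members were counted in the same way, from lists chosen with earlier results of these data known. Of 12 ligands and matrix partners, 10 had ATAC-seq peaks at the promoter in both replicates, 8 had H3K4me3, 5 had H3K27ac and 0 had H3K27me3. The shares over all protein-coding genes, 67.8%, 60.8%, 46.6% and 4.81%, apply to these lists too, and 8 of 12 and 5 of 12 lie near them. The highest H3K27ac was at the laminin chain gene *Lamc1* (21.1 and 16.2), at *Col5a1* (16.1 and 14), a chain of the collagen V that binds *Calcr*, and at *Fgf2* (6.13 and 7.72), a growth factor that binds syndecans. *Hgf*, the ligand of *Met*, had 1 promoter peak in all 8 lists, of H3K4me3 at 3.77 in replicate 1. *Cxcl12*, the ligand of *Cxcr4*, had ATAC-seq (13.5 and 11.1) and H3K4me3 (14.9 and 9.8) and no H3K27ac. Of 17 receptor partners and relatives, all 17 had ATAC-seq and 15 H3K4me3. H3K27ac was found at 6, beside 46.6% of all protein-coding genes, a difference that was not tested in so short a list. These 6 included *Ackr3*, another receptor of Cxcl12 (12.6 and 9.84), the syndecan gene *Sdc2* (13.4 and 8.09) and *Ramp2*, which codes for a partner of calcitonin-family receptors (8.43 and 6.62). Among the integrin α genes of this list, *Itga5* had H3K27ac in both replicates (8.99 and 5.89), *Itga4* in replicate 1 (5.37), and *Itga3*, *Itga6* and *Itga9* in neither. Of 10 other surface proteins of MuSCs, 10 had all of ATAC-seq, H3K27ac and H3K4me3 peaks in both, with the highest H3K27ac at *Fgfr1* (28 and 21.7), *Cd9* (21.5 and 14) and *Cd82* (24.5 and 13.3).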

How the data were processed

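ATAC-seq and ChIP-seq libraries of sorted MuSCs were used as deposited peak lists, 2 replicates for each of 4 features. According to the study's methods and the submitters' processing notes, the authors trimmed reads (Trim Galore 0.6.10), aligned them to mm10 (BWA 0.7.17-r1188), filtered them by mapping quality, duplicates (SAMtools 1.5, Sambamba) and blacklisted regions, shifted ATAC-seq reads for the Tn5 offset (deepTools 3.5.5), and called peaks in each library (MACS2 2.2.6). The deposited fold is a ratio over background, the deposited p-values and q-values are on the −log10 scale, and the deposited score repeats the latter. H3K27me3 lists reach −log10 q values of 0, so their limit was looser than in the other lists. Fold depends on depth and input and is compared between genes within a library.

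Peaks on 21 chromosomes were overlapped by at least 1 bp with GENCODE M21 start sites (Python 3.11.15, NumPy 2.4.6, Matplotlib 3.10.9). The overlap code was tested on simulated peaks. Percentiles are over protein-coding genes with a promoter peak in that library. No test was run, because there is 1 condition. Sequences came from the GRCm38.p6 genome. The members, gene lists and motifs were chosen with earlier results of these data known. For each member the distal peak with the highest lower fold of the 2 replicates was described, and from each gene list the 3 genes with the highest lower H3K27ac fold. *Pax7*, *Hgf*, *Cxcl12*, the other integrins and the remaining named genes of the lists were named after their values were seen. Promoter width, start sites, q limit, summits, window, overlap, equal peak numbers and each replicate left out were tried as alternatives. The inputs and the editing samples were not analysed here.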

Additional observations from a re-analysis of the deposited data

How the results depend on the processing

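Of 56 alternative values for 7 counts, 47 stayed within 1.5 times the count reported, and the 9 others all concern distal peaks. With windows of 100 kb either side, distal ATAC-seq peaks of both replicates rose from 91 to 150, and H3K27ac peaks from 10 to 16. With promoters of 1 kb, distal H3K27ac peaks came to 17 and H3K27me3 peaks to 1. At a −log10 q of at least 5, 5 distal H3K27ac peaks were left, and 6 where replicate 2 had to cover 50% of the replicate 1 peak. With 1 replicate left out, the distal counts were 100 to 127 for ATAC-seq, 15 to 33 for H3K27ac (33 without replicate 2) and 1 to 1 for H3K27me3. The promoter counts stayed at 10 for ATAC-seq and H3K4me3, 7 to 8 for H3K27ac and 0 for H3K27me3 under every alternative run. With promoters of 1 kb, *Sdc3* stayed in the ATAC-seq count through a peak of 5.28 and 4.18. That peak lay near an alternative TSS 21767 bp downstream of the main TSS. The cause of these shifts was not tested beyond the wider window, which adds sequence. No paired analysis was possible because the results come from no test. With 2 libraries per feature and unknown depth, small differences in fold cannot be resolved.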
